A study of Mus musculus with 6 samples.

Results

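The genes described here encode nuclear subunits of the last steps of oxidative phosphorylation. They were taken by symbol from the count table of the SRF overexpression experiment: every gene starting with Uqcr, Cox4i, Cox5, Cox6, Cox7, Cox8 or Atp5, plus Cyc1 and Cycs, with symbols ending in -ps, the mark of a pseudogene, left out. This gave 45 of the 23337 genes in the table, 9 for complex III, 1 for cytochrome c, 18 for complex IV and 17 for ATP synthase. Of these, 44 had enough counts to be tested, and Cox8c did not. The choice by symbol also took in 3 genes that do not encode subunits of the complex they are listed with. These are Cox7a2l, a factor that helps complexes III and IV join into supercomplexes, Atp5s, named Dmac2l in RefSeq, and Atp5sl, named Dmac2, which acts in complex I assembly.

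Complex III passes electrons from ubiquinol to cytochrome c, and complex IV passes them on to oxygen. Both pump protons out of the mitochondrial matrix, and ATP synthase lets the protons back in and makes ATP from ADP and phosphate. Heart muscle depends on this chain more than most tissues, and cardiomyocytes (CMs) shift to it from glycolysis in the weeks after birth. Some complex IV subunits exist as paralogs, and in heart and skeletal muscle the genes Cox6a2, Cox7a1 and Cox8b take over from Cox6a1, Cox7a2 and Cox8a during development.

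All mice were wildtype and received adeno-associated virus at postnatal day 1 (P1), at 5e8 vg per g. The SRF-OE group was given AAV9-cTNT-SRF-2A-GFP, which drives SRF, the transcription factor serum response factor, together with GFP, and the GFP group was given AAV9-cTNT-GFP. Both groups therefore carry virus and GFP, and the cardiac troponin T promoter limits expression to CMs. GFP+ CMs were sorted by FACS at P14, so the libraries describe transduced CMs and not whole hearts. The labels give 3 biological replicates per group, but the column under the title OE1 lists how long each gene is, in bp. It has 0 zeros, and for 72.1% of the 20929 genes compared, and for 28 of 44 of the genes described here, its value lies within 5% of the length of an annotated transcript. By the column titles, SRF-OE then has 2 libraries (SRF-OE 2 and SRF-OE 3) and GFP has 3 (GFP 1, GFP 2 and GFP 3). The column of gene symbols is titled Chr, so the titles do not match the contents in at least 2 columns, and whether the other titles are displaced too could not be settled. A displaced title would change which group a library belongs to in every comparison below. If all titles were displaced by 1 column, the library labelled GFP1 would belong to SRF-OE. Groups of 3 SRF-OE and 2 GFP libraries were not fitted.

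The 5 libraries hold 14137433 to 23159631 counts. Values below are CPM, the counts relative to library size, scaled with TMM factors, and levels of different genes are compared only as CPM per kb of gene length. Srf itself stood at 360 and 748 CPM in SRF-OE 2 and 3 and at 338, 67.2 and 85.0 CPM in GFP 1, 2 and 3. The library labelled GFP1 thus goes against its label at the overexpressed gene, and each result is given with it and, where that changes the result, without it. It is also the library that titles displaced by 1 column would move to SRF-OE, which was not tested. Values given for GFP as a group include it unless stated. Replicate 2 of both groups had Xist at 147 and 88.8 CPM, and the other 3 libraries stood at 0.38 to 0.74 CPM, so replicate 2 of each group was female and the other libraries were male. The summed level of 12 CM markers was 115600 and 101700 CPM in SRF-OE and 118800 to 171600 CPM in GFP, with 11 of 12 at a negative log2 fold change. The summed level of 12 endothelial markers was 932 and 366 CPM against 393 to 709 CPM, and that of 10 fibroblast markers was 939 and 472 CPM against 342 to 518 CPM. Endothelial markers had 12 of 12 and fibroblast markers 10 of 10 positive log2 fold changes, none past the adjusted threshold over the 5 libraries. Without GFP1, 1 fibroblast marker passed it as higher. Of 10 smooth muscle and pericyte markers, 1 then passed as higher and 1 as lower. The shares of all genes were 1.98% higher and 0.97% lower. Smooth muscle and pericyte markers summed to 1201 and 1038 CPM against 1167 to 2021 CPM although 8 of the 10 had positive values, and leukocyte markers to 42.6 and 15.1 CPM against 14.1 to 32.9 CPM. Of 6 erythroid markers, 5 were in the table, summing to 0.52 to 6.70 CPM, with Hba-a1 at 0 in every library. The part of these other cells in the results below was not tested.

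The 45 genes made up a large share of the RNA. They took 5.49% and 4.64% of all counts in SRF-OE 2 and 3, and 5.85%, 5.93% and 5.92% in GFP 1, 2 and 3. Each SRF-OE library lay below each GFP library in this share. Relative to the summed CM markers, the genes stood at 0.436 and 0.425 in SRF-OE and at 0.486, 0.420 and 0.385 in GFP, where the groups overlap. Of the markers, 11 of 12 had a negative log2 fold change themselves, so the ratio is no measure against CM content alone. In sorted bulk RNA, fewer cells of a type and less RNA per cell cannot be told apart.

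Levels per length covered a wide range, with a small group of genes far down. Atp5b, the catalytic beta subunit of ATP synthase, led with 6010 ± 562 CPM per kb in GFP (SD, n = 3). Atp5g3, a c subunit gene, followed with 4944 ± 314 CPM per kb, and the next was Cox4i1, the regulatory subunit IV of complex IV, with 3833 ± 409 CPM per kb. Each of these 3 lay apart from the next in order by more than the sum of their SDs, the next after Cox4i1 being Cox6b1 at 3231 ± 85.5 CPM per kb. Cox6b1 and the gene after it, Atp5a1, at 2847 ± 417 CPM per kb, differed by less than that. Uqcr11, a small subunit, was the highest of complex III with 2383 ± 95.2 CPM per kb, and the core subunit Uqcrc1 stood level with it at 2364 ± 446 CPM per kb. The 4 testis and lung isoforms of complex IV were the lowest, from 7.04 CPM per kb for Cox6b2 down to 0.155 CPM per kb for Cox8c. Above them were Atp5l, Atp5s and Atp5sl between 26.5 and 34.4 CPM per kb and the paralog Atp5g2 with 36.9 ± 1.23 CPM per kb. Cox7a2l with 102 ± 7.20 CPM per kb and Cycs with 202 ± 9.41 CPM per kb came next. The lowest of the rest was Cox6a1 with 590 ± 96.1 CPM per kb. The low value of Atp5l, a subunit gene, has a measured limit, since 68.5% of the 50-base words of its transcripts also occur in transcripts of 13 other genes, and reads from such words may have been dropped or split in counting.

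**Figure D1:**
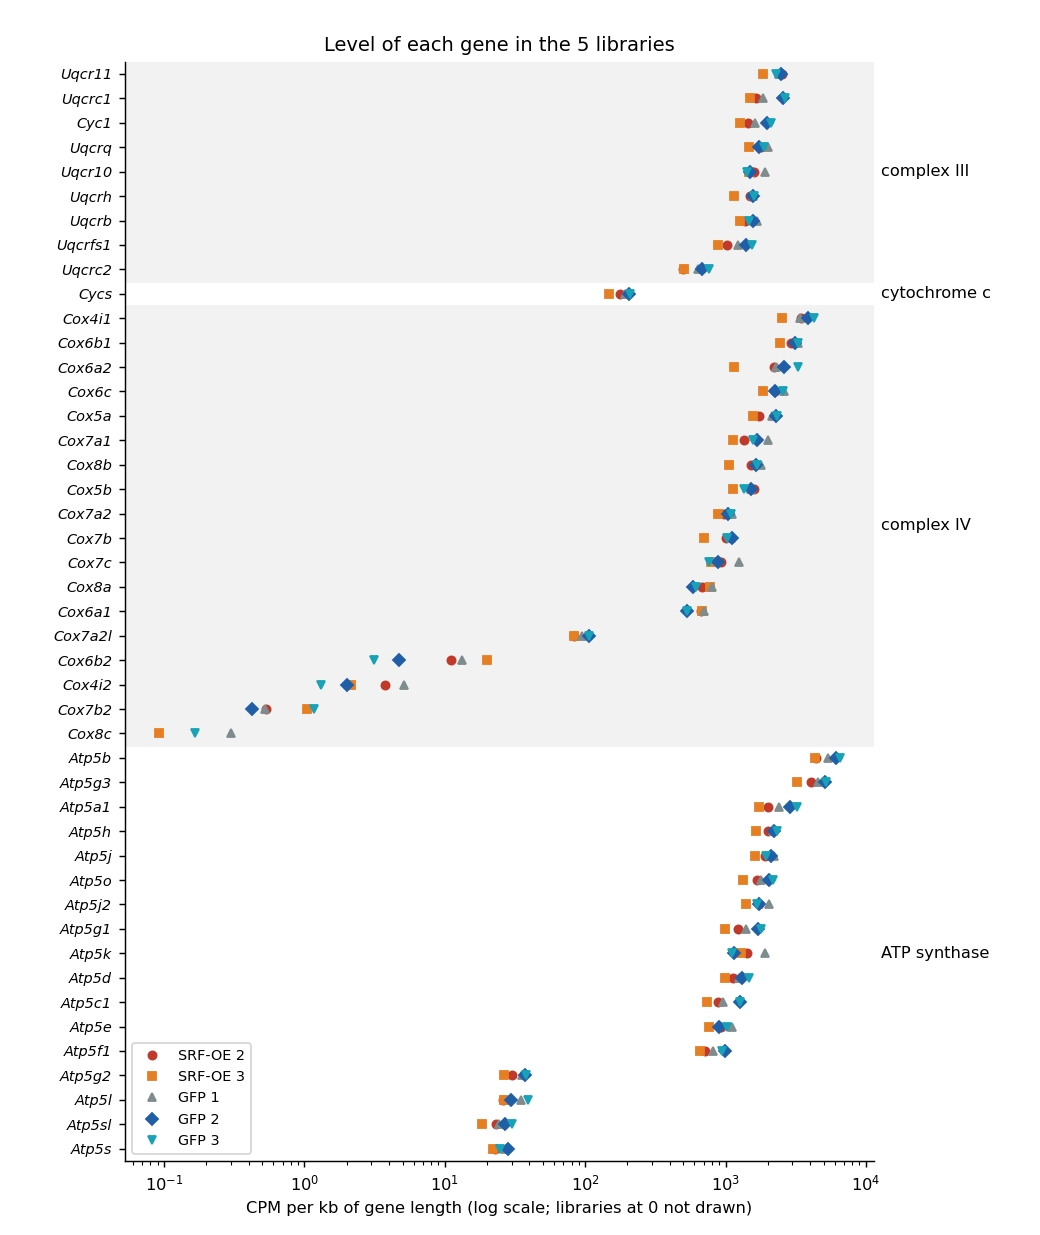
Level of each of the 45 genes in each of the 5 libraries, in CPM per kb of gene length on a log scale, ordered within each complex by the GFP mean. Each symbol is 1 library, and libraries at 0 are not drawn. The SRF-OE 3 squares lie leftmost for most genes, the 4 testis and lung isoforms of complex IV lie at the left end of that complex, and the spread between libraries is small beside the spread between genes.

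Most of the genes stood lower in SRF-OE, by modest amounts. The median log2 fold change of SRF-OE over GFP was -0.31 over the 44 tested genes, beside 0.030 over all 13754 tested genes. Of the 44, 39 had a negative value, beside 46.7% of all genes tested. In 29 of the 44 both SRF-OE libraries lay below all GFP libraries, beside 17.3% of all genes, and in 0 did both lie above, beside 16.1%. The summed level of the 45 genes was 50452 and 43177 CPM in SRF-OE and 57749, 62940 and 65988 CPM in GFP, without overlap.

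Taken singly, none of the genes passed the threshold in the main test. In edgeR's quasi-likelihood test, adjusted over all genes by the Benjamini-Hochberg method, 0 of 44 were called in either direction, beside 0% of all genes higher and 0% lower. At an unadjusted p under 0.05, 11 of the 44 were lower and 0 higher, beside 7.59% and 6.35% of all genes. DESeq2, run on the same 5 libraries, gave an adjusted p to 36 of the genes and called 12 of them lower and 0 higher, beside 19.7% and 1.02% of the 1079 genes to which it gave one. The 12 were Uqcrc1, Uqcrc2, Uqcrfs1 and Cyc1 of complex III, Cox5a and Cox7a1 of complex IV, and Atp5a1, Atp5b, Atp5c1, Atp5f1, Atp5g1 and Atp5g3 of ATP synthase. Without the library labelled GFP1 the median was -0.33, with 36 of 44 negative beside 46.8% of all genes, and edgeR again called 0 of 44, beside 1.98% of all genes higher and 0.97% lower. At an unadjusted p under 0.05, 15 of the 44 were then lower and 2 higher, beside 14% and 14.4% of all genes. DESeq2 called 11 lower and 1 higher on those 4 libraries, beside 6.16% and 6.31%. When edgeR blocked on replicate number over the 5 libraries, it called 1 of the 44 higher and 0 lower, beside 4.23% and 3.14% of all genes. GFP 1 is alone in its block there, so the contrast of that fit rests on the other 4 libraries.

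SRF-OE 3 was the lowest of the 5 libraries for 34 of the 44 genes, and it lay under SRF-OE 2 for 38. Leaving it out moved the median to -0.20, beside 0.0035 over all genes tested. Leaving out SRF-OE 2 moved the median to -0.44, beside -0.017. Both SRF-OE libraries lay on the same side when mice of the same sex were set against each other. SRF-OE 2 against GFP 2, the female pair, gave a median difference of -0.18 on the log2 scale, with 30 of 44 negative. SRF-OE 3 against the mean of GFP 1 and GFP 3 gave -0.46, with 40 of 44 negative. That mean includes GFP 1, whose Srf level goes against its label. The counts in this paragraph have no share of all genes beside them, so a shift of a library over all genes is not set apart.

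**Figure D2:**
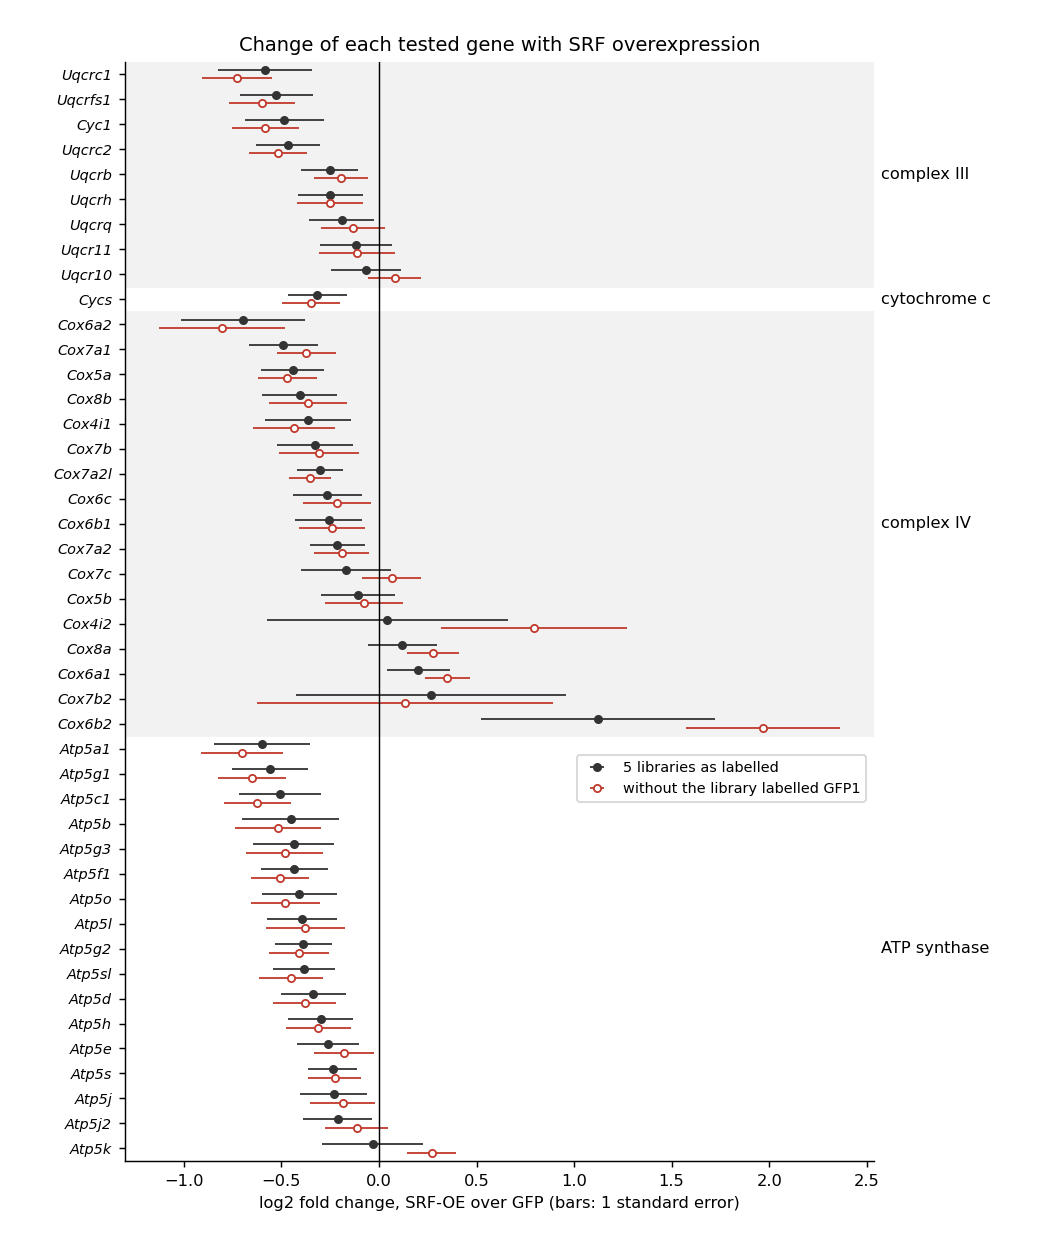
Log2 fold change of SRF-OE over GFP for the 44 tested genes, by complex, with bars of 1 standard error. Filled points use the 5 libraries as labelled (n = 2 and 3), and open points leave out the library labelled GFP1 (n = 2 and 2). All 17 ATP synthase genes and all 9 complex III genes have filled points left of 0, although Atp5k turns to 0.013 with upper quartile scaling, Atp5k and Uqcr10 have open points right of 0, and Cox6b2 stands alone at the right end.

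All 9 complex III genes had a negative log2 fold change over the 5 libraries, beside 46.7% of all genes tested, with a median of -0.25. In 6 the SRF-OE libraries lay below GFP without overlap, beside 17.3% of all genes. The genes of the electron-carrying subunits and the large core proteins stood furthest down. Uqcrfs1, the Rieske iron-sulfur protein, had 1354 and 1167 CPM in SRF-OE 2 and 3, and 1608, 1826 and 2011 CPM in GFP 1, 2 and 3. Cyc1, cytochrome c1, had 1728 and 1516 CPM in SRF-OE 2 and 3, and 1933, 2359 and 2520 CPM in GFP 1, 2 and 3. In both genes the 2 SRF-OE libraries were the lowest, and GFP 1 lay between them and the other GFP libraries. The log2 fold change was -0.53 (SE 0.19, adjusted p = 0.354) for Uqcrfs1 and -0.48 (SE 0.20, adjusted p = 0.358) for Cyc1.

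Uqcrc1 and Uqcrc2 encode the core proteins on the matrix side of complex III. Uqcrc1 had 2729 and 2485 CPM in SRF-OE 2 and 3, and 3065, 4273 and 4405 CPM in GFP 1, 2 and 3. Uqcrc2 had 939 and 951 CPM in SRF-OE 2 and 3, and 1201, 1283 and 1435 CPM in GFP 1, 2 and 3. Neither gene's groups overlapped, and GFP 1 was again the lowest GFP library. Uqcrc1 had the most negative log2 fold change of complex III, -0.59 (SE 0.24, adjusted p = 0.358), or -0.73 (SE 0.18, adjusted p = 0.0716) without GFP1. Uqcrc2 stood at -0.47 (SE 0.16, adjusted p = 0.353), and 19.7% of its annotated exon bases overlap Pdzd9 on the opposite strand, whose reads cannot be told apart in libraries that do not keep strand.

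The small supernumerary subunits of complex III stood nearer to 0. Uqcr10 had 709 and 651 CPM in SRF-OE 2 and 3, and 844, 659 and 631 CPM in GFP 1, 2 and 3, so that GFP 1 was the highest library and the other GFP libraries overlapped SRF-OE. Its log2 fold change was -0.065 (SE 0.18) over the 5 libraries and 0.082 (SE 0.14) without GFP1, with the sign not settled beside that error. Uqcr11 had 1108 and 807 CPM in SRF-OE 2 and 3, and 1040, 1080 and 996 CPM in GFP 1, 2 and 3. Only SRF-OE 3 was low for Uqcr11, and its log2 fold change was -0.12 (SE 0.19), or -0.37 without SRF-OE 2 and 0.084 without SRF-OE 3. Uqcrq, Uqcrh and Uqcrb ranged from -0.25 to -0.19, and Uqcrb shares 43.2% of its 50-base words with 4 other genes. The median of the complex moved from -0.25 to -0.45 when SRF-OE 2 was left out.

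Cycs encodes cytochrome c, the mobile carrier between complexes III and IV. It had 544 and 449 CPM in SRF-OE 2 and 3, and 586, 632 and 639 CPM in GFP 1, 2 and 3, with both SRF-OE libraries below the GFP libraries. Its log2 fold change was -0.32 (SE 0.15, adjusted p = 0.385), close to the median of the 44 genes, and -0.19 without SRF-OE 3. Cycs shares 28.2% of its 50-base words with 43 other annotated genes, most of them named as predicted genes.

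Complex IV had the most mixed signs of the complexes. Its 17 tested genes had a median of -0.26, with 12 negative and 5 positive, beside 46.7% of all genes tested negative. In 8 the SRF-OE libraries lay below GFP without overlap, beside 17.3% of all genes. Sorted by kind of subunit, the 7 genes used in all tissues were all negative over the 5 libraries, with a median of -0.27 and a range of -0.44 to -0.11, and Cox7c alone turned positive without GFP1, at 0.064. The 3 heart and muscle isoforms were all negative with a median of -0.49, and in all 3 the groups did not overlap, beside the same 17.3%. The 3 ubiquitous isoforms that they replace had a median of 0.12, with 1 negative, and the 3 tested testis and lung isoforms were all positive with a median of 0.27. These subgroups are small, and the differences between them were tested only as the paralog ratios given below. The median of complex IV became -0.14 without SRF-OE 3 and -0.40 without SRF-OE 2.

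Cox4i1, subunit IV, which binds ATP and adjusts the enzyme's activity, had 2329 and 1714 CPM in SRF-OE 2 and 3, and 2320, 2612 and 2876 CPM in GFP 1, 2 and 3. The groups touch, because SRF-OE 2 lay just above GFP 1, and the log2 fold change was -0.36 (SE 0.22, adjusted p = 0.456). It became -0.17 without SRF-OE 3 and -0.60 without SRF-OE 2. Cox5a, a subunit on the matrix side, had 1198 and 1092 CPM in SRF-OE 2 and 3, and 1486, 1572 and 1611 CPM in GFP 1, 2 and 3. It is named here after its values were seen, because its groups stood well apart, with a log2 fold change of -0.44 (SE 0.16, adjusted p = 0.354). Cox6b1, on the intermembrane side, had 1487 and 1240 CPM in SRF-OE 2 and 3, and 1660, 1582 and 1653 CPM in GFP 1, 2 and 3, and Cox7b had 1004 and 707 CPM in SRF-OE 2 and 3, and 1099, 1105 and 1020 CPM in GFP 1, 2 and 3. Neither overlapped between groups, but in both genes SRF-OE 2 lay close under the lowest GFP library, and their log2 fold changes were -0.26 (SE 0.17) and -0.33 (SE 0.20). These became -0.14 and -0.11 without SRF-OE 3, and -0.40 and -0.61 without SRF-OE 2. Cox5b, Cox6c and Cox7c overlapped between groups, with values from -0.27 to -0.11.

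The heart and muscle isoform genes all lie on mouse chromosome 7, at chr7:30184171-30186030 for Cox7a1, chr7:128205435-128206366 for Cox6a2 and chr7:140898942-140900446 for Cox8b (RefSeq, GRCm38.p6). Cox6a2, the heart form of subunit VIa, had 1453 and 760.5 CPM in SRF-OE 2 and 3, and 1504, 1733 and 2152 CPM in GFP 1, 2 and 3. SRF-OE 3 alone was far down, and SRF-OE 2 lay just under GFP 1. Of the annotated exon bases of Cox6a2, 10.3% overlap Itgad on the opposite strand. Its log2 fold change of -0.70 (SE 0.32, adjusted p = 0.374) was the most negative of the 44 genes, but it became -0.31 without SRF-OE 3 and -1.24 without SRF-OE 2. Cox7a1, the heart form of subunit VIIa, had 498 and 411 CPM in SRF-OE 2 and 3, and 733, 612 and 571 CPM in GFP 1, 2 and 3, with GFP 1 the highest. Its log2 fold change was -0.49 (SE 0.18, adjusted p = 0.354), and -0.37 (SE 0.15, adjusted p = 0.173) without GFP1. Cox8b, the heart form of subunit VIII, had 555 and 382 CPM in SRF-OE 2 and 3, and 654, 601 and 609.9 CPM in GFP 1, 2 and 3. Here SRF-OE 2 stood near the GFP libraries and SRF-OE 3 well under them, with a log2 fold change of -0.41 (SE 0.19, adjusted p = 0.382), which became -0.17 without SRF-OE 3 and -0.70 without SRF-OE 2.

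Of the ubiquitous partners, Cox6a1 and Cox8a had positive values. Cox6a1 had 359 and 364 CPM in SRF-OE 2 and 3, and 374, 285 and 285 CPM in GFP 1, 2 and 3. It shares 12.3% of its 50-base words with 1 other gene. Cox8a had 369.8 and 425 CPM in SRF-OE 2 and 3, and 437, 322 and 338 CPM in GFP 1, 2 and 3. In both genes SRF-OE stood above GFP 2 and GFP 3, and GFP 1 stood above both SRF-OE libraries. Over the 5 libraries their log2 fold changes were 0.20 (SE 0.16) and 0.12 (SE 0.18), and without GFP1 they were 0.35 (SE 0.12, adjusted p = 0.119) and 0.27 (SE 0.13, adjusted p = 0.234). Cox8a was 0.0069 without SRF-OE 3 and 0.037 without GFP 2. Cox7a2 stood lower in SRF-OE without overlap, with 738 and 667 CPM in SRF-OE 2 and 3, and 834, 791 and 821 CPM in GFP 1, 2 and 3, and a log2 fold change of -0.21 (SE 0.14).

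A ratio of paralogs within a library does not depend on how libraries are scaled. Cox6a2 stood at 3.27 and 1.69 times Cox6a1 per kb in SRF-OE 2 and 3, and at 3.25, 4.91 and 6.11 times in GFP 1, 2 and 3. SRF-OE 2 and GFP 1 had almost the same ratio, and the groups overlap. The difference of the log2 means was -0.97 (SDs 0.68 and 0.46, two-sided exact permutation test over libraries, p = 0.30), and it was -0.49 without SRF-OE 3. Without GFP1 it was -1.22, and the groups then did not overlap. Cox8b stood at 2.25 and 1.35 times Cox8a in SRF-OE and at 2.25, 2.80 and 2.71 times in GFP. Again SRF-OE 2 matched GFP 1, and the difference was -0.56 (SDs 0.52 and 0.17, exact permutation p = 0.20), or -0.19 without SRF-OE 3. Without GFP1 it was -0.66, again with no overlap of the groups. Cox7a1 stood at 1.39 and 1.27 times Cox7a2 in SRF-OE and at 1.81, 1.59 and 1.43 times in GFP. Here the groups did not overlap, with a difference of -0.27 (SDs 0.091 and 0.17, exact permutation p = 0.20), or -0.19 without GFP1.

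Groups of 2 and 3 libraries cannot give an exact p below 0.1, and without GFP1 they cannot go below 0.33, so no ratio could pass the threshold. Adjusted over the 4 ratios computed, with the ATP synthase pair given below, the p-values were 0.30 for Cox6a2 to Cox6a1 and 0.27 for the others. Summed over the 3 pairs, the heart isoforms stood at 2.19 and 1.42 times the ubiquitous ones in SRF-OE and at 2.33, 2.74 and 2.90 times in GFP. All 5 libraries therefore held more RNA of the heart isoforms than of their partners, and each SRF-OE library had a lower summed ratio than each GFP library.

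**Figure D3:**
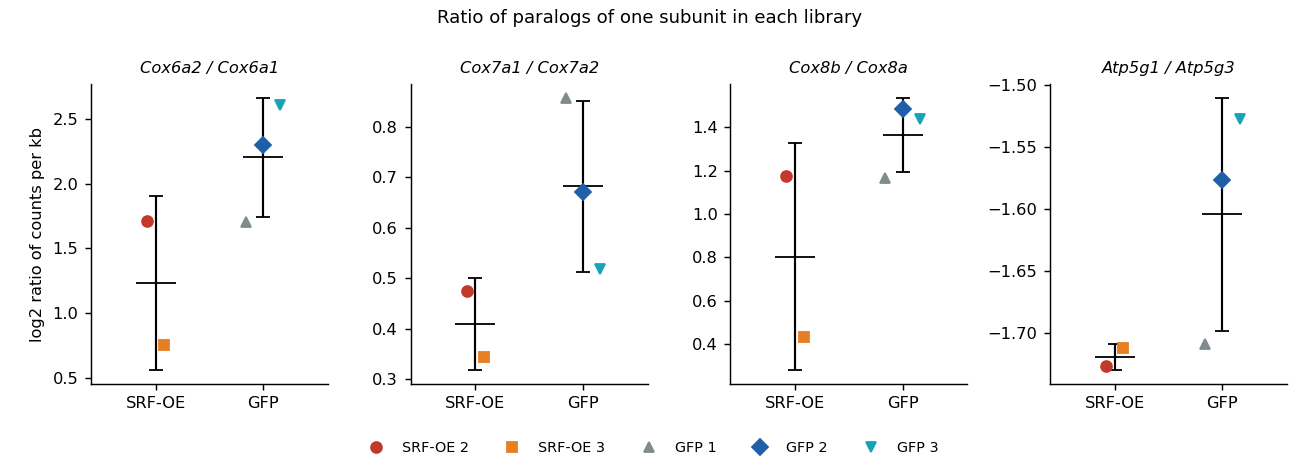
Log2 ratio of counts per kb of paralogs of the same subunit in each library, for Cox6a2 to Cox6a1, Cox7a1 to Cox7a2, Cox8b to Cox8a and Atp5g1 to Atp5g3, with the mean and SD of each group as bars. Each panel has its own vertical axis. SRF-OE 3 has the lowest ratio in the first 3 panels, and GFP 1 lies next to SRF-OE 2 in the panels of Cox6a2 and Cox8b.

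The promoters of the Cox7a and Cox8 pairs differ in plain sequence. In all, 5 promoters are shown, chosen after the heart isoforms had negative log2 fold changes and Cox6a1 and Cox8a positive ones. Cox7a2 was negative too, and no ratio of a pair could pass the threshold. Cox6a2 had no promoter to show, so its pair is not compared. They are RefSeq sequences of GRCm38.p6, from 250 bases before to 50 bases after the annotated start, written 5′ to 3′ on the gene's strand. Capitals mark matches on either strand to the motifs searched: the ETS motif CCGGAA, the NRF1 motif TGCGCA, the SP1 motif GGGCGG, the TATA motif TATAAA, the ERR motif AAGGTCA, the YY1 motif AAGATGG and the CArG box that SRF binds. The TGCGCA motif is its own reverse complement.
Cox8b, chr7:140900397-140900696, minus strand: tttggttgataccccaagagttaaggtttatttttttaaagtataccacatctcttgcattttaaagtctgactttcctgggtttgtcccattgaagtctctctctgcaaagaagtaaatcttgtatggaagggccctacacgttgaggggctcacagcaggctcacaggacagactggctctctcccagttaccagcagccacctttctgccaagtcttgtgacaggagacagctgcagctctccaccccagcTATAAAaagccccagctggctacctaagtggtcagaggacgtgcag
Cox8a, chr19:7217567-7217866, minus strand: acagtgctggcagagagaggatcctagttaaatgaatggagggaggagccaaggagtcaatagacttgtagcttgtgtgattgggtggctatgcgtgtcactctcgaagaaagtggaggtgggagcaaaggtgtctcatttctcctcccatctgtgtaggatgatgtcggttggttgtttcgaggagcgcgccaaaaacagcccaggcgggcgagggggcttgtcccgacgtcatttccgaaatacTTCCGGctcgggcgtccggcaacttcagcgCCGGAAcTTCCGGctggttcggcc
Cox7a1, chr7:30183921-30184220, plus strand: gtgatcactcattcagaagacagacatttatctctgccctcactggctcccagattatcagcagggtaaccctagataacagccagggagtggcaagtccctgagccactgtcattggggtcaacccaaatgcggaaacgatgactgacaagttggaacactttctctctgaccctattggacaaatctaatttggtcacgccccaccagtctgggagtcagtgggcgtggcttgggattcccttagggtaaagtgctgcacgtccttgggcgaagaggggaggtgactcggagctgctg
Cox7a2, chr9:79759804-79760103, minus strand: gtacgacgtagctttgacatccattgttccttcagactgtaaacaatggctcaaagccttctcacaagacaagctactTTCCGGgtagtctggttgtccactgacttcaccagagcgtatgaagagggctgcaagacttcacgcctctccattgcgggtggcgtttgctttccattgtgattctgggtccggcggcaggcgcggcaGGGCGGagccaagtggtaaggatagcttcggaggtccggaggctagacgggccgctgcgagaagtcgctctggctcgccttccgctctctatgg
Cox6a1, chr5:115348909-115349208, minus strand: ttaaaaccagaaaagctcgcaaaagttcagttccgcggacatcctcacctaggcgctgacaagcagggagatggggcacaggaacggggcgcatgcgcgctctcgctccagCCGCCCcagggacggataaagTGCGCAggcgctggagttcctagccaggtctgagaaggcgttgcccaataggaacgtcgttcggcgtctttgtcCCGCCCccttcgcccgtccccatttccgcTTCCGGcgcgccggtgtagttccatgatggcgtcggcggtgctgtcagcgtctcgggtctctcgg

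In these windows the heart isoform Cox8b holds a TATA motif and no ETS motif, while its partner Cox8a holds 3 ETS motifs close to the start. Cox7a1 holds none of the motifs, and its partner Cox7a2 holds an ETS and an SP1 motif. Cox6a1 holds ETS, NRF1 and SP1 motifs. Of the 45 genes, 35 had a promoter in the table. Among these, 14 (40%) held the ETS motif, beside 15% of all 32544 promoters of this length, and 6 (17.1%) held the NRF1 motif, beside 7.79%. The ERR motif occurred in 4 (11.4%), beside 4.71%, and the YY1 motif in 5 (14.3%), beside 6.37%. The SP1 motif was as common as elsewhere, in 13 (37.1%) beside 35.9%, and the TATA motif occurred in 3 (8.57%), beside 13.6%. A CArG box occurred in 0 of the 35 windows, beside 1.64% of all promoters, which says only that these letters are absent from these windows. Genes were counted if any of their promoters held the motif, while the shares beside them are over single distinct promoters. This can raise the share of genes with several promoters. A match of letters is a description and not a measured site of binding.

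The testis and lung isoforms of complex IV were at low levels in every library. Cox6b2, the testis form of subunit VIb, was the most abundant of them, with 6.70 and 12.0 CPM in SRF-OE 2 and 3, and 8.03, 2.84 and 1.89 CPM in GFP 1, 2 and 3. SRF-OE 3 was the highest and GFP 1 lay between the SRF-OE libraries, above GFP 2 and GFP 3. Its log2 fold change was 1.12 (SE 0.60, adjusted p = 0.420) over the 5 libraries and 1.97 (SE 0.39, adjusted p = 0.0559) without GFP1, the highest of the 44 genes in both. It was 0.63 without SRF-OE 3, 0.79 without GFP 3 and 0.89 without GFP 2. Within sex it was higher by 1.24 in SRF-OE 2 over GFP 2 and by 1.28 in SRF-OE 3 over the mean of GFP 1 and GFP 3, on the log2 scale. Even so, Cox6b1 outnumbered it per kb in all libraries, at 2700 against 15.5 CPM per kb in SRF-OE. DESeq2 called Cox6b2 higher without GFP1, with an adjusted p of 0.000419.

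Cox4i2, the lung form of subunit IV, had 2.71 and 1.57 CPM in SRF-OE 2 and 3, and 3.71, 1.47 and 0.946 CPM in GFP 1, 2 and 3, with GFP 1 the highest library. It rests on few counts, and its log2 fold change of 0.042 (SE 0.62) turned to -0.40 without SRF-OE 2 and to 0.79 without GFP1. Cox7b2 had 0.289 and 0.568 CPM in SRF-OE 2 and 3, and 0.285, 0.229 and 0.631 CPM in GFP 1, 2 and 3, which do not separate the groups. Cox8c had counts of 0, 1, 3, 0 and 1 in SRF-OE 2, SRF-OE 3, GFP 1, GFP 2 and GFP 3, too few for a test. Cox7a2l, the supercomplex factor, had SRF-OE below GFP without overlap, with 95.9 and 95.1 CPM in SRF-OE 2 and 3, and 108, 122 and 123 CPM in GFP 1, 2 and 3, and a log2 fold change of -0.30 (SE 0.12, adjusted p = 0.357).

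All 17 ATP synthase genes had a negative log2 fold change over the 5 libraries, though Atp5k turned to 0.013 with upper quartile scaling. Of all genes tested, 46.7% had a negative value. The median of the 17 was -0.39, and in 14 the SRF-OE libraries lay below GFP without overlap, beside 17.3% of all genes. The median became -0.26 without SRF-OE 3 and -0.41 without GFP1. The 5 genes of the F1 head, where ATP is made, had a median of -0.45. The 3 c-ring genes had a median of -0.44, and the 7 genes of the stalks and the rest of Fo a median of -0.30.

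Atp5a1, the alpha subunit of the F1 head, had 4900 and 4227 CPM in SRF-OE 2 and 3, and 5848, 7047 and 7864 CPM in GFP 1, 2 and 3. Atp5b, the catalytic beta subunit, had 8313 and 8188 CPM in SRF-OE 2 and 3, and 10130, 11540 and 12200 CPM in GFP 1, 2 and 3. Atp5c1, the gamma subunit that turns inside the head, had 1602 and 1335 CPM in SRF-OE 2 and 3, and 1723, 2277 and 2266 CPM in GFP 1, 2 and 3. All 3 genes show the same order, with both SRF-OE libraries lowest, GFP 1 next and GFP 2 and GFP 3 highest. Atp5a1 had the most negative log2 fold change of the ATP synthase genes, -0.60 (SE 0.25, adjusted p = 0.358), and -0.70 (SE 0.21, adjusted p = 0.0988) without GFP1. Atp5b stood at -0.45 (SE 0.25, adjusted p = 0.426) and Atp5c1 at -0.51 (SE 0.21, adjusted p = 0.358). The small head subunits were nearer 0, with Atp5d at -0.34 and Atp5e at -0.26, and the groups of Atp5e overlapped.

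The c subunit, which forms the rotating ring in the membrane, is encoded by the 3 genes Atp5g1, Atp5g2 and Atp5g3, whose mature proteins are identical. Atp5g3 had 2769 and 2190 CPM in SRF-OE 2 and 3, and 3113, 3454 and 3505 CPM in GFP 1, 2 and 3. Atp5g1 had 1069 and 854 CPM in SRF-OE 2 and 3, and 1218, 1480 and 1554 CPM in GFP 1, 2 and 3. Both genes had SRF-OE below GFP in every library, with log2 fold changes of -0.44 (SE 0.21, adjusted p = 0.384) and -0.56 (SE 0.20, adjusted p = 0.353). Atp5g3 became -0.29 without SRF-OE 3. Per kb, Atp5g3 made up 73.8% to 76.4% of the RNA of the 3 genes in all libraries, Atp5g1 23.1% to 25.6% and Atp5g2 0.541% to 0.620%. The ratio of Atp5g1 to Atp5g3 was 0.302 and 0.305 in SRF-OE and 0.306, 0.335 and 0.347 in GFP. These do not overlap, but GFP 1 lay next to SRF-OE 3, and the difference on the log2 scale was -0.12 (SDs 0.011 and 0.094, exact permutation p = 0.20). Atp5g2 stood at -0.39 (SE 0.15, adjusted p = 0.356), with 38.3% of its 50-base words shared with 3 other genes. Atp5g1 shares 10.2% of its words with 163 other genes, and Atp5g3 shares 0%.

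Atp5o, the subunit that ties the head to the outer stalk, had 1299 and 1033 CPM in SRF-OE 2 and 3, and 1375, 1584 and 1683 CPM in GFP 1, 2 and 3. SRF-OE 2 lay just under GFP 1, and SRF-OE 3 was lowest. The log2 fold change was -0.41 (SE 0.19, adjusted p = 0.381), or -0.26 without SRF-OE 3, and 28.2% of the 50-base words of Atp5o are shared with other genes, among them Donson on the same strand. Atp5k, the small e subunit of the membrane part, went against the rest, with 417 and 374 CPM in SRF-OE 2 and 3, and 555, 337 and 322 CPM in GFP 1, 2 and 3. GFP 1 was far above all others, and the SRF-OE libraries lay above GFP 2 and GFP 3. Its log2 fold change was -0.033 (SE 0.26) over the 5 libraries and 0.27 (SE 0.13) without GFP1, adjusted p = 0.228 by edgeR. The other stalk and Fo genes, Atp5f1, Atp5h, Atp5j, Atp5j2 and Atp5l, ranged from -0.43 to -0.21. Among them, Atp5h shares 36.9% of its 50-base words with 13 other genes and Atp5f1 22.5% with 2. Atp5s and Atp5sl, which are not subunits, had -0.24 and -0.39 without overlap between groups.

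Most genes that build or accompany these complexes also stood lower in SRF-OE. Of 39 listed assembly factors, complex II subunits and Ndufa4, 37 were tested, 32 had a negative log2 fold change, beside 46.7% of all genes, and the median was -0.25. In 19 the SRF-OE libraries lay below GFP without overlap and in 1 above, beside 17.3% and 16.1% of all genes. Over the 5 libraries edgeR called 0, with 15 lower and 0 higher at an unadjusted p under 0.05, beside 7.59% and 6.35%. Without GFP1 it called 2 lower and 0 higher, beside 0.97% and 1.98%. On simulated counts a larger share of edgeR's calls was false than its cutoff implies, which limits these 2 calls. DESeq2 called 5 of the 12 to which it gave an adjusted p lower over the 5 libraries, beside 19.7%, and 10 of 37 lower without GFP1, beside 6.16%. Lrpprc, which stabilises mitochondrial mRNAs, had 223 and 201 CPM in SRF-OE 2 and 3, and 271, 366 and 430 CPM in GFP 1, 2 and 3, and its log2 fold change was -0.74 (SE 0.21, adjusted p = 0.353), the lowest of the list, and -0.90 (SE 0.14, adjusted p = 0.0473) without GFP1. Uqcc1, a complex III assembly factor listed as Uqcc, had 171 and 154 CPM in SRF-OE 2 and 3, and 208, 277 and 283 CPM in GFP 1, 2 and 3. It stood at -0.66 (SE 0.17, adjusted p = 0.353) over the 5 libraries and fell to -0.78 (SE 0.12, adjusted p = 0.0473) without GFP1. Pet100, a complex IV assembly factor listed as 2900053A13Rik, had 23.2 and 21.5 CPM in SRF-OE 2 and 3, and 26.1, 15.1 and 16.2 CPM in GFP 1, 2 and 3, and the highest value of the list, 0.22 (SE 0.26, adjusted p = 0.695), which was 0.52 (SE 0.16, adjusted p = 0.101) without GFP1 and 0.078 without GFP 2. The 4 succinate dehydrogenase subunit genes of complex II ranged from -0.61 for Sdha to -0.20 for Sdhc.

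The size of the difference ran with gene length among the 44 genes, a pattern looked for after the values were seen. The 19 genes under 600 bp had a median log2 fold change of -0.21, with 16 negative. The 15 genes of 600 to 1200 bp had -0.36, with 13 negative, and the 10 genes over 1200 bp had -0.46, with all 10 negative. Across the 44 genes, which share libraries and are not independent, Spearman's rho of log2 fold change and length was -0.52, or -0.62 without GFP1. Across all 13754 genes tested it was -0.0094, and all genes in the same length classes had medians of 0.091, 0.061 and 0.026. In these classes 93 of 227, 532 of 1223 and 5795 of 12304 genes were negative.

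The library labelled GFP1 took a different place along this range. For the short genes its median stood 0.10 above the mean of the GFP libraries, GFP 1 included, on the log2 scale. SRF-OE 2 stood at -0.077 and SRF-OE 3 at -0.37. For the genes over 1200 bp it stood at -0.16, with SRF-OE 2 at -0.39 and SRF-OE 3 at -0.52. GFP 1 was the highest of the 5 libraries for 16 genes, 13 of them under 600 bp, among them Atp5k, Cox7a1, Cox8b and Uqcr10. In 30 genes SRF-OE lay below GFP 2 and GFP 3 without overlap, beside 30.2% of all genes in those 4 libraries, and in 20 of these 30 GFP 1 lay between the groups. The counts of 16 and 20 for GFP 1 have no share of all genes beside them. They are therefore not set apart from the place of GFP 1 over all genes. In 5 genes SRF-OE lay above GFP 2 and GFP 3, beside 30.8% of all genes: Cox6a1, Cox8a, Cox6b2, Cox4i2 and Atp5k. The part of length, or of Srf in GFP 1, in these differences was not tested.

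**Figure D4:**
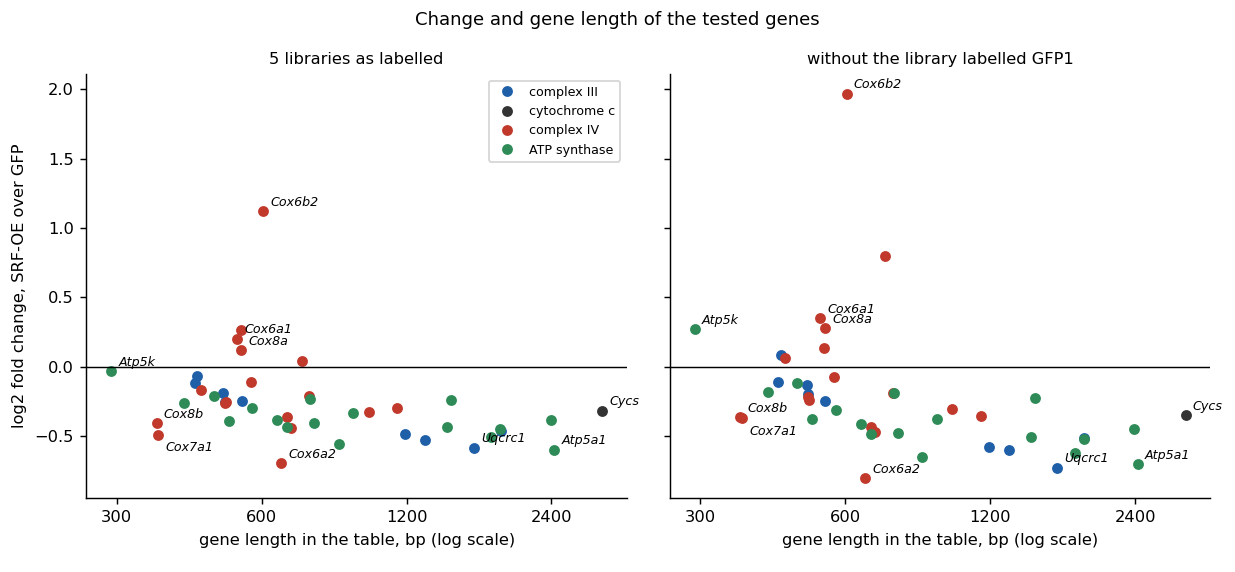
Log2 fold change of SRF-OE over GFP against gene length in bp on a log scale, for the 44 tested genes, coloured by complex, with the 5 libraries as labelled on the left and without the library labelled GFP1 on the right. Each point is 1 gene. The 10 genes over 1200 bp all lie below 0 in both panels, and the genes at or above 0 are all shorter than 1200 bp.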

How the data were processed

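RNA of FACS-sorted GFP+ CMs was amplified by the authors with SMART-Seq v4 and made into Nextera XT libraries, a protocol that does not keep strand. Reads were aligned by the authors with STAR 2.5.3a (mm10). They counted reads per gene with featureCounts of Subread 1.5.2, and deposited raw counts, without normalization, as a single table. The deposited column headed OE1 holds gene lengths and served only as length. Settings for strand and multiply mapped reads are not given in the sources used here. Columns were assigned by name, and 0 were left unused.

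Counts were tested with edgeR 4.0.16 (filterByExpr, TMM, glmQLFit, glmQLFTest) over all genes, with Benjamini-Hochberg adjustment and a cutoff of 0.05. On simulated counts the fit recovered the size of the changes, but a larger share of its calls was false than the cutoff implies. The SE is the log2 fold change divided by the square root of F. Depth ranged from 14137433 to 23159631 counts, and CPM carry this sampling limit. Alternatives were DESeq2 1.42.0, other scalings and filters, a replicate block and leaving out each library, and 2 scalings without GFP1 were added after the data were seen. Genes, lists and tests were chosen with earlier results of these data known. Named are paralog families, catalytic and core subunits, the extremes of each complex, and the extremes and called genes of the pathway list. Gene lists of other cell types served as checks. Annotation was RefSeq GRCm38.p6, where 45 of 45 symbols matched, 3 by an older symbol, and GENCODE M21 for shared 50-base words. The table has 0 genes of the mitochondrial genome, so subunits encoded there were not analysed here.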

Additional observations from a re-analysis of the deposited data

How the results depend on the processing

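With edgeR, no alternative scaling or filter brought any of the 44 genes past the threshold over the 5 libraries, and leaving out any single library did not either. The number called higher became 1 with the replicate block, 1 with GFP replicate 1 left out and the block, and 1 with GFP replicate 1 left out and DESeq2, in each case Cox6b2. GFP 1 is alone in its block, so with the block it adds nothing to the contrast. Both fits with the block thus compare the same 4 libraries and are not separate results. The number called lower became 12 with DESeq2 and 11 with DESeq2 without GFP replicate 1. The replicate numbers were not taken to pair the samples. Deviations from the group means correlated at 0.40 for number 2 and -0.074 for number 3, or 0.22 over the 4 libraries without GFP1, and by Xist both number 2 libraries were female and both number 3 libraries male. The block changed no other call among the 44 genes. Of the 37 tested pathway genes it called 5 lower and 0 higher, beside 3.14% and 4.23% of all genes. Cox6b2 stood at 1.90 with the block (adjusted p = 0.0407 by edgeR) and at 1.91 with the block and without GFP replicate 1 (adjusted p = 0.0457). Both values lie just under the cutoff. On simulated counts edgeR without a block gave a larger share of false calls than the cutoff implies, and the block was not simulated.

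Leaving out each library in turn, the median log2 fold change ranged from -0.44 to -0.20 over the 44 genes, from -0.45 to -0.21 for complex III, from -0.40 to -0.14 for complex IV and from -0.46 to -0.26 for ATP synthase. Leaving out an SRF-OE library leaves 1 in that group, which is then assumed to vary like the GFP libraries. Every other alternative kept these medians within the spread between libraries.

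Among the genes chosen by rule, direction reversed only in those near 0 or at few counts. Atp5k became positive, at 0.013 with upper quartile scaling, 0.26 with the replicate block, 0.035 without SRF-OE replicate 3 and 0.27 without GFP replicate 1. With GFP replicate 1 left out it was also 0.27 with the block, 0.26 with DESeq2, 0.26 with DESeq2's size factors in edgeR and 0.33 with upper quartile scaling. Uqcr10 became positive, at 0.075 with the block and 0.082 without GFP replicate 1, and with that library left out at 0.081 with the block, 0.072 with DESeq2, 0.075 with its size factors and 0.14 with upper quartile scaling. Leaving out single libraries, Atp5k ranged from -0.17 to 0.27 and Uqcr11 from -0.37 to 0.084, the last without SRF-OE replicate 3. Cox4i2, at up to 0.79 without GFP replicate 1, became -0.40 without SRF-OE replicate 2, -0.16 without GFP replicate 2 and -0.28 without GFP replicate 3. Cox7b2, at up to 0.63 without SRF-OE replicate 2, became -0.34 without SRF-OE replicate 3 and -0.0079 without GFP replicate 2. The causes were not tested.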
